A study of Mus musculus with 99 samples.

Results

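The 2 receptors for corticosteroids and 6 of their known response genes were followed through 5 brain regions of juvenile mice: Nr3c1, Nr3c2, Fkbp5, Sgk1, Tsc22d3, Zbtb16, Hif3a and Cdkn1a. The 8 genes were chosen by name, with earlier results of these data known. They were found by Ensembl identifier among the 55335 genes of each count file, and all 8 passed the filter on low counts in every region. The 99 libraries came from tissue punches of wild type C57BL/6 offspring. Cortex was sampled as prelimbic (PrL) and primary somatosensory (S1) areas, thalamus as its ventrobasal part (VBT), striatum as nucleus accumbens (NAc) and midbrain as ventral tegmental area (VTA). Fentanyl-exposed mice of either sex were born to dams that drank fentanyl at 10 µg/ml in water from embryonic day 0 until weaning, and control mice of either sex to dams given water. Region, sex and treatment gave 20 groups, 19 with 5 libraries and 1, male water S1, with 4. The sources used here give no age in days, litter or pooling of animals, and p-values therefore measure only the spread between these libraries, which may share a litter or an animal.

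Corticosterone, the main glucocorticoid of mice, enters cells and binds the glucocorticoid receptor or the mineralocorticoid receptor, which chaperones hold ready in the cytoplasm. The bound receptor moves to the nucleus and binds glucocorticoid response elements, short palindromic DNA sequences, near the genes it regulates. In the brain the mineralocorticoid receptor binds corticosterone tightly and is largely occupied at rest, whereas the glucocorticoid receptor is filled mainly when the hormone is high, at the daily peak or under stress. Response genes such as Fkbp5, Sgk1 and Tsc22d3 are widely used as readouts of that signal.

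Nr3c1 (ENSMUSG00000024431) encodes the glucocorticoid receptor, and Nr3c2 (ENSMUSG00000031618) encodes the mineralocorticoid receptor. Fkbp5 (ENSMUSG00000024222) encodes FKBP51, a co-chaperone that lowers the receptor's affinity for hormone and closes a feedback loop. Sgk1 (ENSMUSG00000019970) encodes a serum- and glucocorticoid-regulated kinase of ion channels and transporters, and Tsc22d3 (ENSMUSG00000031431) encodes GILZ, an anti-inflammatory leucine zipper protein. Zbtb16 (ENSMUSG00000066687) encodes the zinc finger repressor PLZF, Hif3a (ENSMUSG00000004328) an oxygen-regulated transcription factor subunit, and Cdkn1a (ENSMUSG00000023067) the cell cycle inhibitor p21. On GRCm38 (GENCODE M21) Nr3c2 lies at chr8:76899442-77245012 and Sgk1 at chr10:21882184-21999903 on the plus strand, with Cdkn1a at chr17:29090976-29100727. On the minus strand lie Fkbp5 at chr17:28399094-28517527, Tsc22d3 at chrX:140539528-140600659, Zbtb16 at chr9:48654297-48836222 and Hif3a at chr7:17031507-17062427. Exons of Nr3c2 overlap the gene Gm10649 on the other strand and those of Cdkn1a overlap AC167363.2, and whether the counting used strand is not given in the sources used here, so reads from these pairs may not be told apart.

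RefSeq promoter windows on GRCm38.p6, each 300 bases long with 250 before and 50 after a start site, were matched for 6 of the 8 genes, 14 windows in all. The full response element searched for was AGAACA, 3 bases of any kind and TGTTCT, which reads the same on both strands, and the 6-base site was TGTTCT on either strand, which also lies inside the full one. Of all 32851 windows of that length, 3 held the full element, or 0.00913%, and 19.0% held the 6-base site. Among the members' 14 windows, 1 of Sgk1 held the full element, and 4, of which 3 belong to Sgk1 and 1 to Tsc22d3, held the 6-base site. The windows of Nr3c2, Fkbp5, Hif3a and Cdkn1a held neither, which says only that these letters are not in these windows. A match is a description of the sequence and no evidence of binding. The 250 bases before a start site are shown for the Sgk1 window with the full element, for the Tsc22d3 window with a 6-base site and for Hif3a, the gene whose same-numbered libraries were most alike below. Letters of a matched element are in capitals and all other bases in lower case.
Sgk1: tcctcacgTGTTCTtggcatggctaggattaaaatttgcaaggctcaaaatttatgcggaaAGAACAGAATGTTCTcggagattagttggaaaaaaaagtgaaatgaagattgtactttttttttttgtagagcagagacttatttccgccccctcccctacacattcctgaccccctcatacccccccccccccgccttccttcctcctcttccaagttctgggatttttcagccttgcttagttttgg
Tsc22d3: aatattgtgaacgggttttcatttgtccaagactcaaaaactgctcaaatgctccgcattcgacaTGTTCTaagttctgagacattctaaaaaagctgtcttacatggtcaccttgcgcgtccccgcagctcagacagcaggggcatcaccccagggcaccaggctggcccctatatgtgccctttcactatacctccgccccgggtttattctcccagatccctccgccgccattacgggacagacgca
Hif3a: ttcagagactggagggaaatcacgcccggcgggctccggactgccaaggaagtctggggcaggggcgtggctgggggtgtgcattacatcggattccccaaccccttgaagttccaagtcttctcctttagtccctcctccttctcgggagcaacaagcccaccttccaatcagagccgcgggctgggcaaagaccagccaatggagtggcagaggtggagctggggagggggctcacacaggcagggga
The Sgk1 sequence is chr10:21993640-21993889 on the plus strand, with the full element at chr10:21993701-21993715, 189 to 175 bases before the start site at 21993890 and 965 to 951 bases before the next start site of the gene. The Tsc22d3 sequence is chrX:140600523-140600772 and the Hif3a sequence chr7:17062428-17062677, both on the minus strand.

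Levels are given as CPM, a gene's counts scaled to 1000000 gene counts in its library. Totals of the 98 libraries used ranged from 23032078 to 52069639 counts, with a median of 36024982, and 24079 to 27347 genes had a count in each. The third male water library of VTA had counts for only 6333 genes, under the minimum of 10000 set for inclusion, and was left out. Region markers, scored as the mean log2 of CPM plus 1, were highest in the region of their name: 5.96 for dopamine neuron markers in VTA against medians of 0.18 to 0.88 elsewhere, 8.46 for thalamic markers in VBT, 8.24 for striatal markers in NAc, and 7.68 and 7.99 for cortical markers in S1 and PrL. The left-out VTA library scored 8.23 for thalamic markers, against 3.97 to 5.00 in the other VTA libraries and 7.25 to 8.79 in VBT. It scored 1.21 for dopamine neuron markers, against 3.94 to 6.47 in the other VTA libraries, and its tissue of origin was not tested. Cortical markers scored 3.49 to 7.06 in NAc and striatal markers up to 6.52 in VBT, and the part of neighbouring tissue in the levels below was not tested. In such bulk tissue, fewer cells of a type and less RNA per cell cannot be told apart.

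Of the receptors, Nr3c1 was highest in VBT, at 179 ± 17.7 CPM (SD, n = 20), and lowest in VTA, at 100.5 ± 12.5 CPM (n = 19). S1 lay between them at 162 ± 15.7 CPM (n = 19), with PrL at 118 ± 8.18 and NAc at 117 ± 9.65 CPM (n = 20 each). Each step in that order passed the test (edgeR's quasi-likelihood test, Benjamini-Hochberg adjustment), the smallest being PrL over NAc with a log2 fold change of 0.10 ± 0.05 (SE, adjusted p = 0.0380), although the libraries of all neighbouring regions overlapped. By mean CPM that step was 0.01 on the log2 scale, against 0.10 after TMM normalization. Nr3c2 had another order. It reached 64.0 ± 5.82 CPM in NAc (n = 20), where the lowest library, at 51.4 CPM, lay above the highest of any other region, at 42.4 CPM in S1. The remaining means were 35.5 in S1, 32.9 in VBT, 29.2 in VTA and 28.4 CPM in PrL. S1 and VBT did not pass the test (adjusted p = 0.213). PrL and VTA changed places with the scaling: VTA was higher by mean CPM, but after TMM normalization it was lower by 0.11 ± 0.05 on the log2 scale (adjusted p = 0.0321).

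Per kilobase of exon, the scale on which genes can be compared, the glucocorticoid receptor was above the mineralocorticoid receptor in every library. The ratio of Nr3c1 to Nr3c2 per kilobase had a median of 1.49 in NAc (range 1.23 to 2.06), 2.93 in VTA (2.24 to 3.51), 3.54 in PrL (2.75 to 4.34), 3.85 in S1 (3.10 to 4.73) and 4.59 in VBT (3.49 to 5.57). The NAc libraries all lay below those of the other regions.

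The response genes did not share a regional order. Fkbp5 was highest in NAc, at 45.7 ± 5.15 CPM (SD, n = 20), and its means in the other regions, between 21.9 and 24.4 CPM, did not pass the test between neighbours in the order. Among those regions VTA passed as lower than VBT (adjusted p = 0.00873) and PrL (adjusted p = 6.18e-05), and S1 as lower than PrL (adjusted p = 0.0473). The step from VTA to VBT was small by mean CPM, 21.9 against 22.6, while after TMM normalization VTA was lower by 0.19 ± 0.07 on the log2 scale. Sgk1 was highest in VBT, at 86.2 ± 23.2 CPM, and lowest in PrL, at 37.8 ± 3.45 CPM (n = 20 each), while VTA, NAc and S1, with means of 61.1, 57.4 and 53.8 CPM, did not pass the test between neighbours. Tsc22d3 was high in VBT, at 151 ± 14.3 CPM, and in VTA, at 110.0 ± 17.4 CPM, and reached 59.6 CPM in S1, 46.4 in NAc and 40.6 in PrL, the last pair not passing the test (adjusted p = 0.258). The means of these 3 genes peaked in NAc or VBT.

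Zbtb16 and Cdkn1a were instead highest in PrL. Zbtb16 was at 80.1 ± 14.4 CPM in PrL and 63.4 ± 13.8 CPM in S1, a pair that did not pass the test (adjusted p = 0.0823), against 24.1 in VBT, 22.4 in VTA and 16.04 CPM in NAc. VBT and VTA did not pass the test for Zbtb16 (adjusted p = 0.206). Cdkn1a was at 34.2 ± 8.65 CPM in PrL, 18.3 in S1, 16.9 in NAc, 12.6 in VTA and 10.2 CPM in VBT, with S1 and NAc (adjusted p = 0.275) and VTA and VBT (adjusted p = 0.317) not passing the test. Hif3a varied least between regions, with means from 5.85 CPM in NAc to 7.69 CPM in VTA, and no neighbours in its order passed the test in this fit, which has no term for the library number. Per kilobase of exon it had the lowest mean of the 8 genes in each region, 0.8718 to 1.1465 CPM. Its libraries within a region spread widely, from 1.96 to 10.9 CPM in VBT.

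Over all regions, 7 of the 8 genes, all but Hif3a (adjusted p = 0.264), were called in the test for any difference between regions, a test that called 95.1% of the 22326 genes. Between single pairs of regions the members were called in 59 of 80 tests. VTA differed from VBT in 5 of 8 members (66.0% of all genes), from S1 in 5 (74.0%), from PrL in 7 (75.8%) and from NAc in 7 (75.4%). VBT differed from S1 in 5 members (74.3% of all genes), from PrL in 6 (76.1%) and from NAc in 7 (75.9%). S1 differed from PrL in 6 (52.2%) and from NAc in 5 (64.7%), and PrL from NAc in 6 (65.7%). The members' shares, 5 to 7 of 8, are near those of all genes. For Hif3a the only pair called was VTA over NAc. These fits have no term for the library number, the term for which Hif3a had the smallest adjusted p of the 8 genes, as described below. With the number of each sex and treatment as a replicate block, Hif3a passed the test for any difference between regions (adjusted p = 0.00060), as 94.9% of all genes did. The SE of its log2 difference between PrL and NAc was 0.07 with the block and 0.16 without. NAc was then called as lower than each other region for Hif3a, by 0.18 against PrL (adjusted p = 0.0189) to 0.30 against VTA (adjusted p = 7.96e-05), and no other pair was called. The block also called Fkbp5 as lower in VTA than in S1 (adjusted p = 0.0153) and Zbtb16 as lower in S1 than in PrL (adjusted p = 0.00774), which brought the members to 64 of 80 calls, and no call of the fits without it was lost. Over all genes the block called from 52.4%, between S1 and PrL, to 76.3%, between VBT and PrL, in a pair of regions.

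**Figure D1:**
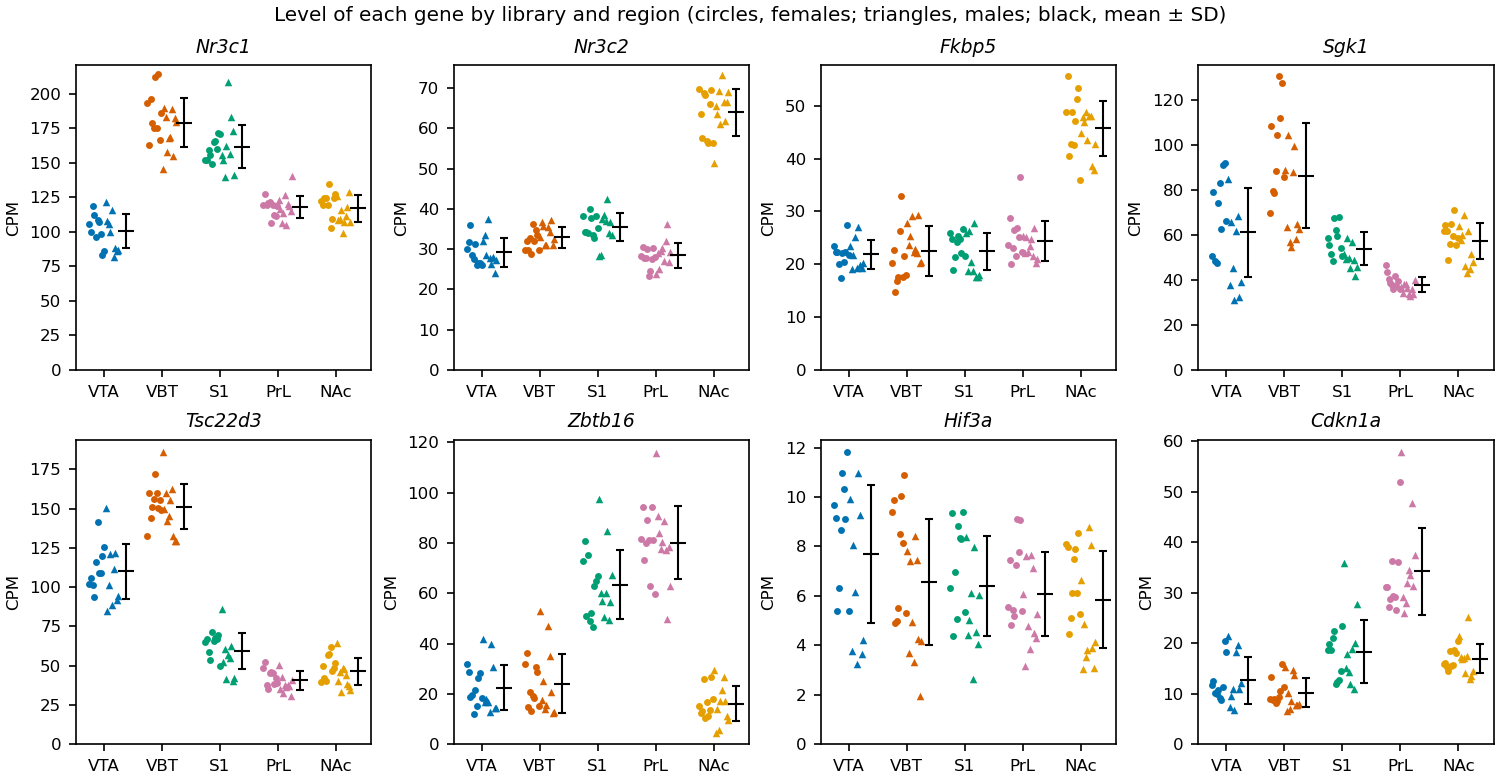
Level of each gene in CPM (vertical axis, linear, from 0) in the 98 libraries by region (horizontal axis). Circles are female and triangles male libraries, and black marks show the mean ± SD over the 19 or 20 libraries of a region. Nr3c2 and Fkbp5 stand highest in NAc, Nr3c1, Sgk1 and Tsc22d3 in VBT, Zbtb16 and Cdkn1a in PrL, and Hif3a overlaps in all regions.

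Exposure to fentanyl was compared with water in each sex and region. In VTA of males both receptors passed the test and no response gene did. Nr3c1 was at 122, 108, 106, 99.9 and 116 CPM in the male fentanyl libraries and at 81.8, 88.1, 86.2 and 86.8 CPM in the male water libraries. The groups did not overlap. The log2 fold change of Nr3c1 was 0.40 ± 0.08 (SE, edgeR's quasi-likelihood test, adjusted p = 0.00393). Nr3c2 was at 31.99, 33.4, 28.6, 37.5 and 27.8 CPM with fentanyl and at 26.3, 28.1, 24.0 and 27.4 CPM with water, so that 1 water library lay above 1 fentanyl library. Its log2 fold change was 0.31 ± 0.10 (adjusted p = 0.0345). In that contrast 22.0% of the 19822 genes tested were called, 2174 higher and 2181 lower. The 2 of 8 members called are near that share. The score of dopamine neuron markers ranged from 3.94 to 6.07 in these male fentanyl libraries (median 5.34) and from 5.63 to 6.47 in the male water libraries (median 6.09). The blood score ranged from 3.13 to 5.54 (median 4.28) and from 3.03 to 4.58 (median 3.27). The part of these markers in the receptor result was not tested.

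In VTA of females neither receptor passed the test. Nr3c1 was at 106, 99.97, 119, 112 and 96.0 CPM with fentanyl and at 109, 107, 98.3, 83.2 and 86.1 CPM with water, and these libraries overlapped (log2 fold change 0.13 ± 0.08, adjusted p = 0.516). Nr3c2 was at 30.0, 31.8, 36.0, 28.4 and 27.6 CPM with fentanyl and at 31.2, 25.9, 26.4, 26.6 and 26.0 CPM with water (log2 fold change 0.16 ± 0.10, adjusted p = 0.493). No gene was called in VTA of females. The male effect was not shown to differ from the female effect for either gene (adjusted p = 0.420 and 0.673), and no gene was called for that difference. In the average of both sexes Nr3c1 rose by 0.26 ± 0.06 on the log2 scale (adjusted p = 0.00382) and Nr3c2 by 0.23 ± 0.07 (adjusted p = 0.0203), among 23.1% of genes called.

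The VTA libraries also differed in how counts followed base composition. The deviation of each gene from its VTA mean was correlated with the GC content of its longest transcript across genes, which are not independent replicates. Spearman's rho was 0.45 to 0.57 in the 4 male water libraries and -0.41 to -0.08 in the 5 male fentanyl libraries. In females it was -0.28 to 0.58 with water and -0.47 to 0.00 with fentanyl. The transcript of Nr3c1 holds 42.2% G and C and that of Nr3c2 47.5%, against a median of 49.3% over genes. With a GC trend removed from each library, the male change was 0.21 ± 0.06 for Nr3c1 (adjusted p = 0.0697) and 0.26 ± 0.10 for Nr3c2 (adjusted p = 0.162), neither was called, and 3.64% of genes were. Neither was called in the average of both sexes either (adjusted p = 0.120 and 0.132, with 4.33% of genes called). With the left-out VTA library kept, the male change was 0.45 for Nr3c1 (adjusted p = 0.0767) and 0.63 for Nr3c2 (adjusted p = 0.9996), and 42 genes in all were called. With a covariate for the share of reads that fell outside exons Nr3c1 was called in males (0.44, adjusted p = 0.00124) and Nr3c2 was not (0.29, adjusted p = 0.0518). In that fit Cdkn1a was called, at -0.83 ± 0.18 in males (adjusted p = 0.00291) and -0.60 ± 0.12 in the average (adjusted p = 0.00156), against -0.39 ± 0.33 (adjusted p = 0.445) and -0.36 ± 0.23 (adjusted p = 0.286) without the covariate. The fit with the covariate called 5527 of 19822 genes in males and 5817 in the average. Cdkn1a was also called in the average without male fentanyl 1 (-0.55, adjusted p = 0.0421), where 4019 of 19808 genes were called. With the number as a replicate block Nr3c2 was not called in males (0.34, adjusted p = 0.0531). Leaving out each of the 19 libraries in turn kept Nr3c1 called in males in every fit, with a log2 fold change from 0.36 to 0.43. Nr3c2 was called in 14 of those 19 fits and lost without male fentanyl 1, male fentanyl 4, male water 1, male water 4 or male water 5, the largest adjusted p being 0.126 without male water 4.

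**Figure D2:**
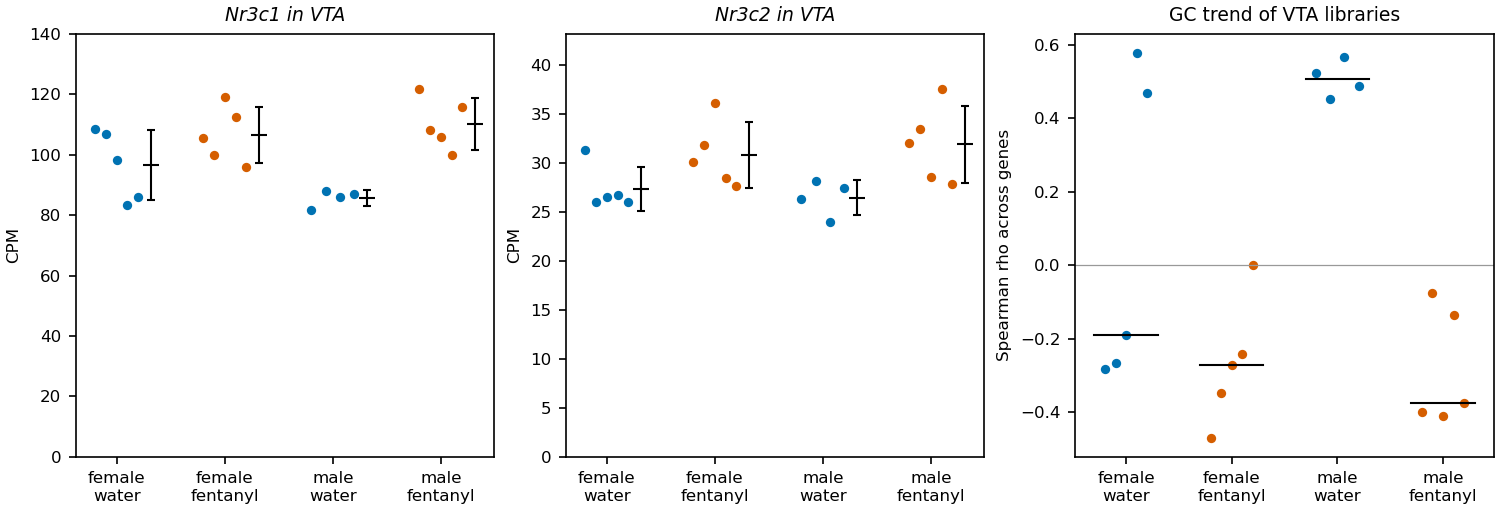
VTA libraries of the 4 groups (horizontal axis). The first pair of panels shows CPM of Nr3c1 and of Nr3c2 (from 0, with mean ± SD), and the last shows Spearman's rho across genes between deviation from the VTA mean and GC content (bars, median). The male water libraries sit between 81.8 and 88.1 CPM for Nr3c1, below all male fentanyl libraries, and all have a rho of 0.45 or more.

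Other genes of the pathway were counted in the same VTA contrast, in which 22.0% of all genes were called. Of 10 receptor chaperones 3 rose, Ptges3 (log2 fold change 0.33, adjusted p = 0.0156), Dnaja1 (0.31, adjusted p = 0.0106) and Hsp90aa1 (0.26, adjusted p = 0.0448), all parts of the HSP90 and HSP70 machinery, and none fell. Of 24 further response genes, Klf9 (0.27) rose, and Ddit4 (-0.60) and Mt1 (-0.53) fell. The 3 of 10 chaperones called are near the share of all genes, and the 3 of 24 further response genes are below it. The median log2 fold change was 0.07 for chaperones and -0.07 for further response genes, against 0.00 over all genes. None of the 6 stress peptides and receptors, and none of the 3 corticosteroid enzymes tested of 5 listed, was called. With the GC trend removed, none of the receptors, chaperones and further response genes called here was called.

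In VBT, S1, PrL and NAc no member was called in 128 tests, made of 8 genes, 4 regions and the female, male, average and interaction contrasts of edgeR's quasi-likelihood test. DESeq2's Wald test also called 0. At an unadjusted p under 0.05, 11 of the 128 passed, or 8.59%, against 10.7% over all genes in the same contrasts, and the smallest adjusted p was 0.170, for Sgk1 in NAc of males. The share of genes called was 0.142% in S1 of females, 0.0210% in PrL of females, 0.662% in NAc of males, 1.03% in the S1 average and 0.697% in the PrL average, and 0% in the other contrasts.

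The signs of the response genes are given as a description, since none passed the test within a sex and region in fits without a covariate on all libraries used. Hif3a was lower with fentanyl in 9 of the 10 contrasts within a sex and region, with log2 fold changes down to -0.41 ± 0.22 in PrL of females (adjusted p = 0.569). Cdkn1a was lower in 8 of 10, from -0.39 to 0.42. Fkbp5 and Tsc22d3 were each higher in 6 and lower in 4. These 2 genes were higher with fentanyl in males in all 5 regions, by 0.05 to 0.15 and by 0.10 to 0.28, the largest being 0.28 ± 0.17 for Tsc22d3 in S1 (adjusted p = 0.777). In females both were lower in 4 of 5 regions, with -0.24 for Tsc22d3 in VTA and, for Fkbp5, -0.34 ± 0.15 in VBT (adjusted p = 0.572). Sgk1 in NAc of males was at 64.0, 57.9, 59.8, 68.95 and 46.2 CPM with fentanyl and 43.0, 61.7, 44.9, 51.3 and 47.9 CPM with water. These groups overlapped, and the log2 fold change was 0.29 ± 0.11 (adjusted p = 0.170); without male fentanyl 5 it was called (0.39, adjusted p = 0.0356).

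The regions do not give independent evidence on a sign, since libraries that carry one number in several regions moved together for most of these genes, as described below. The mean over regions was therefore taken for each number, giving 20 values, 5 per sex and treatment, and fitted with limma. No member was called in females (0% of 17595 genes), males (3.86%), the average (3.09%) or the interaction (0%), and none had an unadjusted p under 0.05. The difference for Hif3a was -0.31 ± 0.28 in females and -0.11 ± 0.28 in males, and for Tsc22d3 it was -0.09 ± 0.11 and 0.16 ± 0.11.

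**Figure D3:**
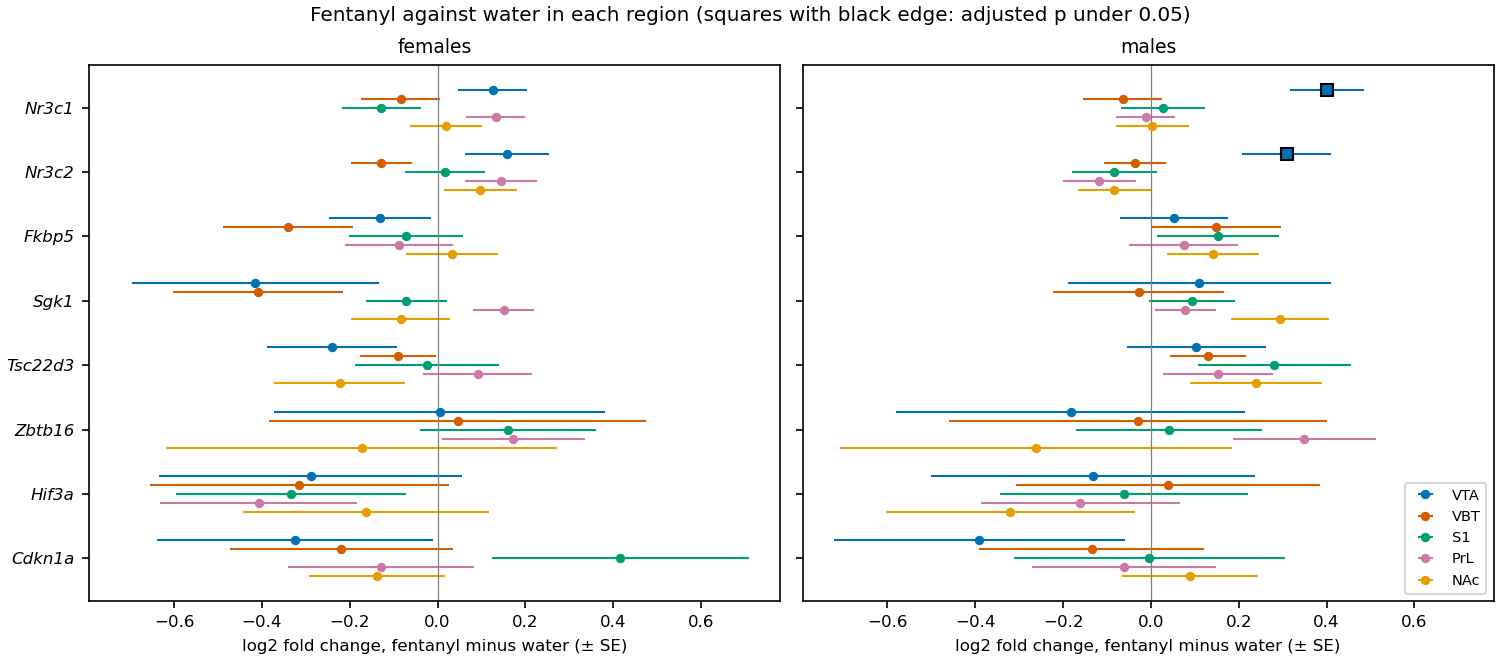
Log2 fold change of fentanyl against water (horizontal axis, ± SE) for each gene in each region (colours), with females on the left and males on the right. Squares with a black edge mark the only differences that passed the test, Nr3c1 (0.40) and Nr3c2 (0.31) in VTA of males.

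Between the sexes, male minus female over both treatments, no member was called in any region by edgeR's quasi-likelihood test or by DESeq2's Wald test, while the share of genes called was 0.132% for VBT, 0.0858% for VTA, 0.0786% for PrL, 0.0770% for NAc and 0.0709% for S1. Of the 40 tests, 6 had an unadjusted p under 0.05, or 15%, against 8% over all genes. Sgk1, Hif3a and Tsc22d3 were lower in males in all 5 regions, Tsc22d3 by log2 differences of -0.20 to -0.05. For Sgk1 the VBT libraries ranged from 69.6 to 130.3 CPM in females, with a median of 96.4, and from 54.8 to 104 CPM in males, with a median of 64.1. Its log2 difference was -0.40 ± 0.14 in VBT, the region with the smallest adjusted p (0.253), -0.39 ± 0.21 in VTA, -0.20 ± 0.07 in S1, -0.16 ± 0.08 in NAc and -0.14 ± 0.05 in PrL. For Hif3a the VBT libraries ranged from 4.92 to 10.9 CPM in females and from 1.96 to 8.44 CPM in males, and the difference lay between -0.53 ± 0.24 in VBT and -0.28 ± 0.16 in PrL. In the means over regions, with 10 values of each sex, the difference was -0.27 ± 0.08 for Sgk1 (adjusted p = 0.368) and -0.46 ± 0.20 for Hif3a (adjusted p = 0.617), where 0.0966% of genes were called. Neither passed the test.

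Libraries carry a number from 1 to 5 within each sex and treatment in every region, except that male water 2 has no S1 library here and male water 3 of VTA was left out. The labels do not say what a number marks, whether an animal, a litter or a day. Fits with a term for each number in each sex and treatment, 16 terms in all over the 5 regions, called 3.45% of 22326 genes. All 6 response genes were among them and neither receptor was. The adjusted p was 2.59e-18 for Hif3a, 2.03e-08 for Cdkn1a, 3.31e-07 for Zbtb16, 4.55e-07 for Tsc22d3, 8.04e-05 for Fkbp5 and 0.00256 for Sgk1 (edgeR's quasi-likelihood test), against 0.577 for Nr3c2 and 0.935 for Nr3c1. The median F was 7.57 for the 6 response genes, 1.06 for the receptors and 1.09 over all genes.

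Hif3a shows the pattern most plainly. In male water mice, libraries numbered 1 ranged from 7.66 to 10.98 CPM and those numbered 2 from 7.11 to 9.29 CPM, whatever the region. Those numbered 3 ranged from 3.88 to 4.56, those numbered 4 from 1.96 to 4.30 and those numbered 5 from 4.12 to 6.05 CPM. Numbers 1 and 2 lay above all others in the 4 regions that hold both, and in S1, which has no number 2, number 1 was the highest. In female water mice number 5 stayed between 5.27 and 5.41 CPM and was the lowest in all 5 regions, whereas number 4, at 8.56 to 11.8 CPM, was the highest in 4 of 5 regions. In male fentanyl mice number 1 ranged from 6.06 to 9.94 CPM, number 2 from 3.05 to 4.43 and number 5 from 2.63 to 3.85 CPM. In female fentanyl mice number 2 ranged from 7.45 to 9.89 CPM and number 3 from 4.36 to 5.40 CPM. The test for any difference between regions was passed by Hif3a with the number in the fit (adjusted p = 0.00060) and not without it (adjusted p = 0.264).

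The same was measured as the correlation of same-numbered libraries between 2 regions, over 18 to 20 numbers, on log2 CPM less the mean of the group. For Hif3a Pearson's r lay between 0.72 and 0.93 in the 10 pairs of regions, with a mean of 0.83. The closest pair was VBT and NAc, with r = 0.93 and Spearman's rho = 0.93 (permutation p = 1e-05 for both, the smallest that 100000 permutations of numbers within groups can give, adjusted p = 0.00027 over 80 relations for r). All 10 pairs passed at an adjusted p under 0.05, and r stayed between 0.70 and 0.93 without the 2 farthest libraries. Over 17595 genes the mean r had a median of 0.03, with a 5th to 95th percentile from -0.10 to 0.27.

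Cdkn1a, Zbtb16 and Tsc22d3 followed, with mean r of 0.61, 0.63 and 0.59, and 4, 7 and 4 of 10 pairs past the threshold by r and 2, 4 and 2 by rho. The male fentanyl libraries numbered 1 were the highest of their group in all 5 regions for each of the 3 genes. For Zbtb16 these stood at 42.0, 53.1, 97.4, 116 and 29.3 CPM (VTA, VBT, S1, PrL, NAc), against highest values of 18.1, 25.2, 60.2, 90.8 and 17.2 CPM in the other 4 numbers. For Cdkn1a they stood at 21.5, 15.3, 35.9, 57.8 and 21.5 CPM in the same order of regions, against 10.8, 10.2, 17.9, 31.9 and 17.3 CPM. For Tsc22d3 they stood at 150.3, 186, 86.3, 50.7 and 64.7 CPM, against 121, 160.0, 60.7, 42.8 and 48.4 CPM. Without that number 1.60% of all genes were called instead of 3.45%, and all 6 response genes were still called. Without the 2 farthest libraries r fell as low as 0.02 for Cdkn1a (PrL and NAc) and -0.04 for Tsc22d3 (VTA and S1), while Zbtb16 kept 0.15 to 0.91.

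Zbtb16 was closest between VTA and VBT, with r = 0.95 and rho = 0.95 (permutation p = 4e-05 and 3e-05, adjusted p = 0.00064 for r). Numbers 1 and 2 of male water mice also stood out for it, at 40.0 and 30.6 CPM in VTA and 47.1 and 35.0 CPM in VBT, where the remaining male water libraries lay between 12.4 and 20.5 CPM. Cdkn1a was high in numbers 4 and 5 of female water mice. Number 4 was at 20.5, 15.8, 14.4, 36.0 and 18.0 CPM and number 5 was at 18.2, 11.4, 23.5, 51.9 and 20.4 CPM in VTA, VBT, S1, PrL and NAc, against 8.79 to 11.2 CPM in VTA and 11.9 to 12.7 CPM in S1 for numbers 1 to 3. Numbers 1 to 3 ranged from 8.60 to 10.4 CPM in VBT, from 26.5 to 29.3 CPM in PrL and from 15.4 to 18.7 CPM in NAc, where number 3 lay above number 4. Hif3a lay above its group mean in all 5 regions in number 4 and was the lowest of its group in all 5 in number 5.

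Fkbp5 and Sgk1 were less tied to the number, with a mean r of 0.46 and 0.35. For Fkbp5 3 of 10 pairs of regions passed by r and 3 by rho, the closest being PrL and NAc (r = 0.67, rho = 0.61, permutation p = 0.00828 and 0.0133, adjusted p = 0.0288 for r). In male water mice Fkbp5 was at 27.0 CPM in VTA and 27.9 CPM in S1 for number 1, against 19.4 to 20.3 and 17.5 to 17.9 CPM for the others. For Sgk1 2 of 10 pairs passed, VTA with VBT (r = 0.79, rho = 0.76, permutation p = 0.00245 and 0.00500, adjusted p = 0.0115 for r) and VTA with S1 (r = 0.66, rho = 0.60, adjusted p = 0.0232 for r), and pairs with PrL gave r from 0.05 to 0.16. Without VTA or without VBT the number term of Sgk1 was not called (adjusted p = 0.131 and 0.164).

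For the receptors no such tie passed a test. Mean r was -0.05 for Nr3c1, from -0.43 to 0.17, and 0.06 for Nr3c2, from -0.34 to 0.40, and 0 of their 20 pairs passed, with 0 at an unadjusted permutation p under 0.05.

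**Figure D4:**
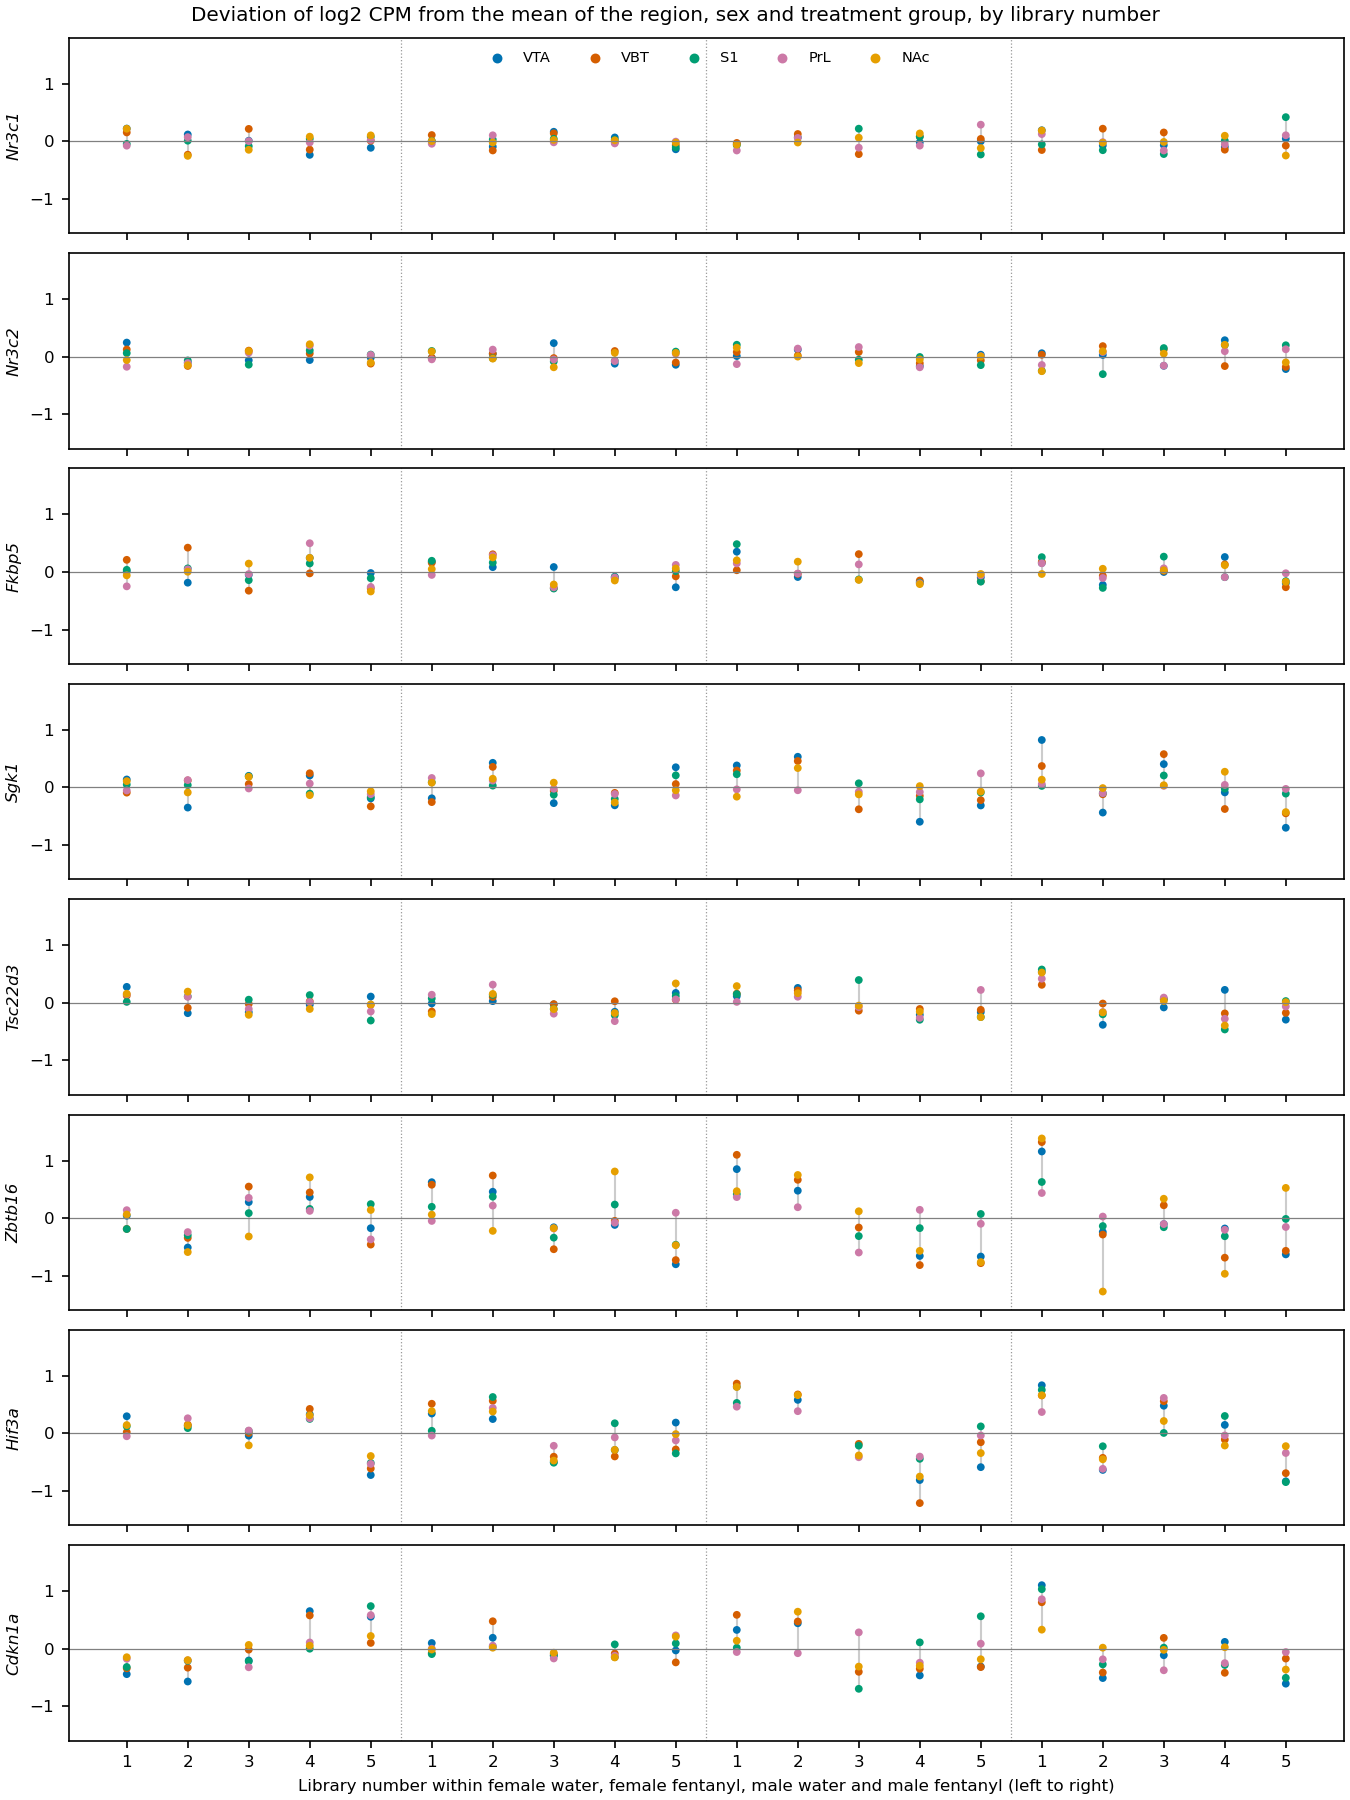
Deviation of log2 CPM from the mean of its region, sex and treatment group (vertical axis) for each library number (horizontal axis; 5 numbers each of female water, female fentanyl, male water and male fentanyl), with 1 coloured point per region. Points of 1 number mostly lie close together, many of them away from 0, for Hif3a, are more spread for Zbtb16, and stay near 0 with mixed signs for Nr3c1 and Nr3c2.

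**Figure D5:**
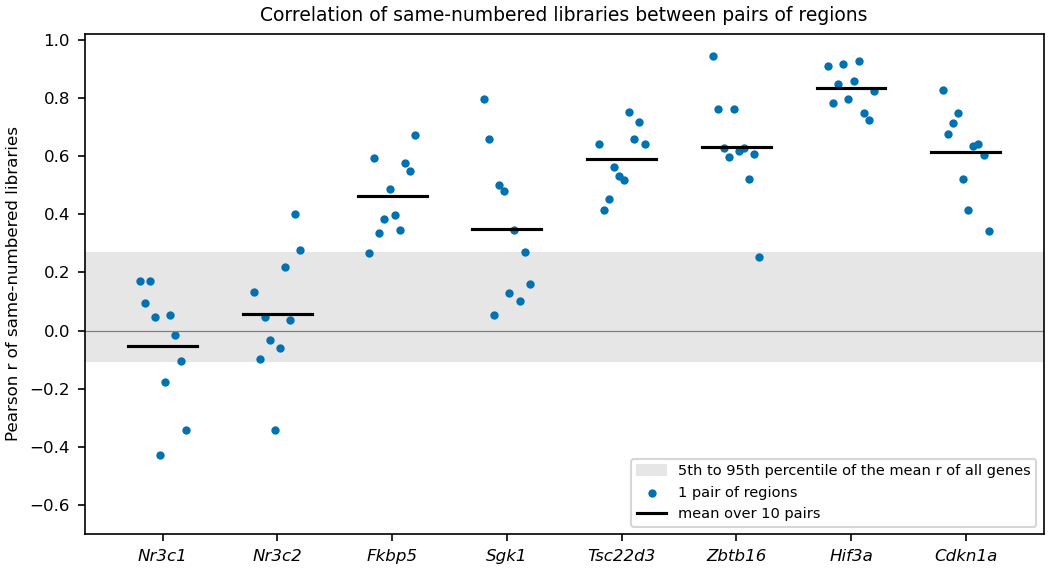
Pearson's r of same-numbered libraries between 2 regions (vertical axis) for each gene (horizontal axis). Points are the 10 pairs of regions, bars their mean (0.83 for Hif3a, -0.05 for Nr3c1), and the grey band runs from -0.10 to 0.27, the 5th to 95th percentile of the mean r of 17595 genes.

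Measures of the libraries were set beside the number term. With blood and endothelium scores as covariates all 6 response genes were called (Hif3a 7.85e-16, Sgk1 0.0318, adjusted p), among 3.37% of genes. All 6 were also called with the percent of reads outside exons and the count of detected genes as covariates (Hif3a 1.60e-16, Sgk1 0.00345), among 4.64% of genes. With the GC trend removed all 6 were called too (Hif3a 4.75e-18, Sgk1 0.00214), among 4.62% of genes. In fentanyl libraries alone all 6 were called, among 2.09% of genes. In water libraries alone 3 were called, Hif3a (4.93e-10), Zbtb16 (0.00266) and Cdkn1a (0.0267), among 0.792% of genes, and Fkbp5, Tsc22d3 and Sgk1 were not (adjusted p = 0.104, 0.134 and 0.203). Whether the number term differs between treatments was not tested.

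The other genes of the pathway were counted against the 3.45% of all genes called for the number, and differences between the lists were not tested. These lists, like the members, were chosen with earlier results of these data known, so their counts are a description. Of 24 further response genes 12 were called for the number, with a median F of 2.81 against 1.09 over all genes. The smallest p belonged to Dusp1, a phosphatase of MAP kinases (adjusted p = 1.18e-11, mean r 0.69), Plin4, a lipid droplet coat protein (5.10e-08, mean r 0.61), and Per1, a clock gene (1.40e-07, mean r 0.58). Of 10 chaperones 4 were called, with Dnajb1 (3.26e-07, mean r 0.59), Hspa8 (0.00829, mean r 0.37) and Stip1 (0.0222, mean r 0.34) first. Of 4 corticosteroid enzymes tested 1 was called, Srd5a1 (0.0239), a steroid reductase. None of the 6 stress peptides and receptors (median F 0.99) was called.

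Correlations between members within a region were computed as well. Over the 15 pairs of response genes and 5 regions, Pearson's r of deviations from the group mean was above 0 in 68 of 75 cases, with a median of 0.52, and 10 of the 15 pairs were above 0 in every region. The 5 regions are not independent in this count, since same-numbered libraries varied together for these genes. Over all pairs of 17595 genes in the same libraries the median r was 0.00, with 50% above 0, a description since pairs of genes are not independent. Over the 12 pairs of a receptor with a response gene it was above 0 in 36 of 60 cases, with a median of 0.07, and in 27 of 60 with a median of -0.04 when libraries were scaled to their totals alone. Of 140 relations of all kinds, those with an adjusted permutation p under 0.05 were 21 of the 75 between response genes by r and 8 by rho, and 1 of the 60 of a receptor with a response gene by either, Nr3c2 with Fkbp5 in NAc (r = 0.62, rho = 0.68, adjusted permutation p = 0.0462 and 0.0422).

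The median r of response genes was 0.69 in both VTA and VBT and 0.36 to 0.42 in S1, PrL and NAc. The closest were Sgk1 with Hif3a in VTA (r = 0.86, rho = 0.86, adjusted permutation p = 0.0326 and 0.0248) and Zbtb16 with Cdkn1a in VBT (r = 0.84, rho = 0.75, adjusted permutation p = 0.0140 and 0.0248), with r of 0.82 and 0.74 without the 2 farthest libraries. Fkbp5 with Hif3a passed by r in each of S1, PrL and NAc, with r of 0.67, 0.56 and 0.66, and by rho in none of them (adjusted permutation p = 0.0737, 0.0528 and 0.0528). Members also varied with measures of the libraries. In VTA, over 19 libraries r was -0.92 between Tsc22d3 and an astrocyte score, -0.85 between Cdkn1a and the percent of reads outside exons, and -0.58 to -0.68 between each of the 6 genes and a blood score. In other regions r was -0.74 between Tsc22d3 and the percent outside exons in PrL, -0.66 between Hif3a and the percent of mitochondrial counts in VBT, and 0.71 between Fkbp5 and the same measure in NAc. The part of these measures in the correlations within a region was not tested.

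The 3 genes whose deviations were most like those of each member over the 98 libraries are given as a description. They were Xdh (r = 0.70), Sgms1 (0.68) and Mertk (0.67) for Hif3a, Adipor2 (0.75), Sgms1 (0.63) and Gm19439 (0.56) for Sgk1, and Adipor2 (0.72), Gpt2 (0.65) and Ptpn1 (0.64) for Cdkn1a. For Tsc22d3 they were Paqr8 (0.69), Slc2a1 (0.69) and Adipor2 (0.68), for Zbtb16 Arid5b (0.74), Ccdc93 (0.72) and Prdm2 (0.67), and for Fkbp5 Slc9a2 (0.59), Xdh (0.57) and Mapk4 (0.55). Adipor2, an adiponectin receptor, recurs for 3 members, and its own same-numbered libraries had a mean r of 0.64. For Nr3c1 they were Btbd8 (0.75), Fam168a (0.74) and Rb1cc1 (0.73), and for Nr3c2 Ngly1 (0.56), Copg2 (0.56) and Chd4 (0.55), none of which is listed for a response gene. Each r sets values from the same libraries, of the same depth, beside each other. The mean r of same-numbered libraries lay between -0.05 and 0.15 for the 6 genes listed for the receptors. For the genes listed for response genes it ran from 0.14, for Slc9a2, to 0.69, for Xdh, so the ranges met.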

How the data were processed

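Per the labels' protocols, RNA of each tissue punch was amplified by Smart-Seq v4, starting with 10 ng. The values the authors deposited are raw counts for each Ensembl gene and library, made with HTSeq on GRCm38 per the submitters' processing notes; the aligner, annotation release and strand setting are not given in the sources used here. The 5 summary lines of each file stayed out of totals and tests, and their reads outside exons made up 9.99% to 18.0% of a library's reads. Symbols (55154 of 55335 identifiers), exon lengths and GC content came from GENCODE M21. Depth limits Hif3a most, whose smallest count in a used library was 76, against 2288 for Nr3c1 and 778 for Nr3c2.

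The members and gene lists were chosen with earlier results of these data known. Groups follow the labels. Each region was fitted with edgeR 4.0.16 (quasi-likelihood F-test, TMM, filterByExpr, robust) in R 4.3.3, with Benjamini-Hochberg adjustment over all genes tested and a call at an adjusted p under 0.05. Standard errors are the fold change over the root of F, and GC content is that of a gene's longest transcript. Region and number terms were fitted over all 5 regions. Number means over regions were fitted with limma 3.58.1, a fit chosen after seeing the data. Correlations used log2 CPM (TMM, prior count 2), permutations within groups and Python 3.11.15 with scipy 1.17.1. Alternatives were DESeq2 1.42.0 and its size factors, other count filters, GC or exon length offsets, covariates, the number as a block, and libraries or regions left out. Beside the members, at most 3 called genes in each direction were named per list and contrast, by smallest p, and the 3 genes most like each member by Pearson's r. The fits were also run on simulated counts with a single fixed spread and no GC trend, so that run does not bear on the GC trend of the VTA libraries. Results for the list of receptor coregulators are not reported here.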

Additional observations from a re-analysis of the deposited data

Results flagged for a closer look

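In 15 of 160 groups of a gene, 1 library stood far from the others of its group by the ratio of its gap to the group's range (Dixon's criterion at 95%). Chance gives about 1 in 20 of independent groups, and these are not independent, since response genes and same-numbered libraries varied together, so the count is not set against that share. The libraries numbered 1 of male fentanyl mice, in VTA, VBT, S1 and PrL, account for 6 of them. For Zbtb16 that number stood at 42.0 CPM in VTA against 12.7 to 18.1 in the others, at 53.1 CPM in VBT against 14.2 to 25.2, and at 97.4 CPM in S1 against 50.5 to 60.2. For Cdkn1a that number stood at 21.5 CPM in VTA against 6.86 to 10.8, at 35.9 CPM in S1 against 11.8 to 17.9, and at 57.8 CPM in PrL against 25.9 to 31.9.

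In S1 the library female water 5 was the lowest for Tsc22d3, at 49.5 CPM against 65.5 to 69.3, and for Hif3a, at 5.35 CPM against 8.30 to 9.40, and the highest for Cdkn1a, at 23.5 CPM against 11.9 to 14.4. For Fkbp5 male water 1 was the highest in VTA, at 27.0 CPM against 19.4 to 20.3, and in S1, at 27.9 CPM against 17.5 to 17.9, and female water 4 was the highest in VTA, at 27.5 CPM against 20.5 to 22.4. Female fentanyl 2 was the highest for Hif3a in PrL, at 7.45 CPM against 4.81 to 5.55, and for Cdkn1a in VBT, at 13.3 CPM against 8.14 to 8.96. Of the receptors, Nr3c2 in VTA stood apart in female water 1, at 31.2 CPM against 25.9 to 26.6.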

How the results depend on the processing

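In VTA of males 2 members were called, 0 with the left-out library kept, 0 with the GC trend removed, 1 with a replicate block and 1 to 2 with each library left out. With a covariate for the share of reads that fell outside exons 2 were called, Nr3c1 and Cdkn1a, and Nr3c2 was not (adjusted p = 0.0518). In the VTA average 2 were called, 0 with that library kept, 0 with the GC trend removed, 3 with that covariate and 1 to 3 with each library left out. In NAc of males 0 were called, and 0 to 1 with each library left out. The number term called 6 members, and 3 in water libraries alone. The receptors' fold changes in VTA of males and in the average kept their sign in all these fits. The order of VTA and PrL for Nr3c2 turned with the scaling, the median r of receptors with response genes went from 0.07 to -0.04 with total scaling, and without 2 libraries r went from 0.41 to -0.04 for Tsc22d3 (VTA and S1) and from 0.10 to -0.08 for Sgk1 (S1 and PrL). The cause of each change was not tested. In VTA of males 4355 genes were called, 42 with that library kept, 722 with the GC trend removed, 5527 with the covariate for reads outside exons and 2659 without male water 4. In the VTA average they were 4580, 60 with that library kept, 859 with the GC trend removed and 5817 with that covariate. The number term called 771 genes, 96 with that library kept, 330 to 583 with a region left out, 443 in fentanyl and 170 in water libraries alone, and 356 without male fentanyl 1. With that library kept, Fkbp5 and Sgk1 lost the number term.

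A pairing of samples by the numbers that the treatments share was not found, and what a number marks was not tested. Across treatments 7 of 48 same-numbered pairs of libraries correlated above 0.1 over genes (median 0.03, and 0.00 for different numbers). There 12 of 50 libraries correlated best with their own number. Across regions, within a sex and treatment, 38 of 192 pairs lay above 0.1, and 86 of 194 comparisons were best with the own number. The replicate block called 3749 genes in VTA of males and 4219 in the average, and Nr3c2 was then at an adjusted p of 0.0531 in males (edgeR's quasi-likelihood test).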

Other observations

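In the VTA library left out for its 6333 genes with a count, of 16515545 counts in all, 1569 counts of Nr3c1, 2368 of Tsc22d3 and 1907 of Cdkn1a were found. The other 5 members had 0 counts there. That library scored 8.23 for thalamic and 1.21 for dopamine neuron markers.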
